A study of Mus musculus with 13 samples.

Results

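Foxp3 regulatory T cells were taken from samples labelled as mouse lung, in a single-cell RNA count matrix of 37344 cell barcodes, and 94 barcodes met the rule that defined them. The cells were selected on their own counts: at most 10% of unique molecular identifiers (UMIs, 1 per captured RNA molecule) from mitochondrial genes, at least 1 UMI of Foxp3, at least 1 UMI over Cd3e, Cd3d and Cd3g, and no UMI of Cd8a, Cd8b1, Cd79a or C1qa. The labels list 13 lung samples. By title, 4 of them are Asthma, PPE-emphysema, PPE-recovery and Control, and the other 9 are 3 samples each of acute injury, con and emphysema. PPE is porcine pancreatic elastase, which was instilled into the trachea every week in the emphysema model and a single time in the recovery model. In the acute injury model the lungs were taken 3 days after the first PPE instillation. Ovalbumin was used for the asthma model. The study names C57BL/6 mice, takes the single-cell libraries from 1 mouse per group, and used dissociated whole lung without a sort that it states. It describes single-cell libraries of 4 groups, namely asthma, emphysema, recovery and control, and bulk RNA sequencing besides. The age of the mice was not given in the sources used here. Each barcode ends in 1 of 7 library numbers that nothing ties to a sample. All values are therefore given by library number, there are no replicates, and the disease models were not compared. All intervals below cover counting error only, at the 95% level.

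Regulatory T cells are CD4 T cells that restrain other immune cells, and the transcription factor Foxp3 sets their identity. They take up interleukin 2 through the high-affinity receptor chain CD25 (Il2ra) and block costimulation through CTLA-4 (Ctla4). Helios (Ikzf2) and Eos (Ikzf4) act with Foxp3, and GITR (Tnfrsf18), OX40 (Tnfrsf4) and 4-1BB (Tnfrsf9) are receptors of the tumor necrosis factor family that they carry. Resting regulatory T cells recirculate through lymphoid organs with the chemokine receptor Ccr7, and those that settle in tissues carry the interleukin 33 receptor ST2 (Il1rl1) and can release the epithelial growth factor amphiregulin (Areg).

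The 94 Foxp3 T cells held 756312 UMIs, with a median of 5772.5 UMIs per cell (range 2667 to 35355) and 2154.5 genes. Libraries 1 to 7 gave 21, 15, 23, 1, 6, 1 and 27 of them. Libraries 4, 5 and 6 stood apart from the rest. Their barcodes had between 158500 and 200040 CPM, the UMIs of a gene scaled to a library size of 1000000, for the hemoglobin gene Hbb-bs, against 38.6 to 140.1 in libraries 1, 2, 3 and 7. Surfactant protein C (Sftpc), made by alveolar epithelium, was at most 0.0646 CPM there and between 2653 and 9425 CPM in the others. These 3 libraries held 8 of the Foxp3 T cells. Over the whole matrix the total was 305234740 UMIs, from 29701569 in library 4 to 79439569 in library 2. In all, 153 barcode sequences occurred in more than 1 library. Among the Foxp3 T cells, 2 shared a sequence with a barcode of another library and 0 with another Foxp3 T cell.

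Foxp3 T cells made up 6.43% (exact binomial interval 5.22 to 7.81) of the 1463 cells that met the rule without its Foxp3 part. Among Foxp3 T cells and Foxp3-negative CD4 T cells together, which numbered 614, they were 15.3% (12.6 to 18.4). That share was 36.0% (25.2 to 47.9) in library 7, 22.3% (14.7 to 31.6) in library 3, 13.9% (7.99 to 21.9) in library 2 and 10.2% (6.45 to 15.2) in library 1. Library 7 lay above libraries 1 and 2 beyond the counting intervals, while its interval overlapped that of library 3. Libraries 4, 5 and 6 had 10% (0.253 to 44.5), 10.7% (4.03 to 21.9) and 1.75% (0.0444 to 9.39). In libraries 1, 2, 3 and 7 alone the share of cells meeting the rule without Foxp3 was 7.78% (6.27 to 9.52), and in libraries 4, 5 and 6 it was 2.23% (0.970 to 4.36).

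**Figure D1:**
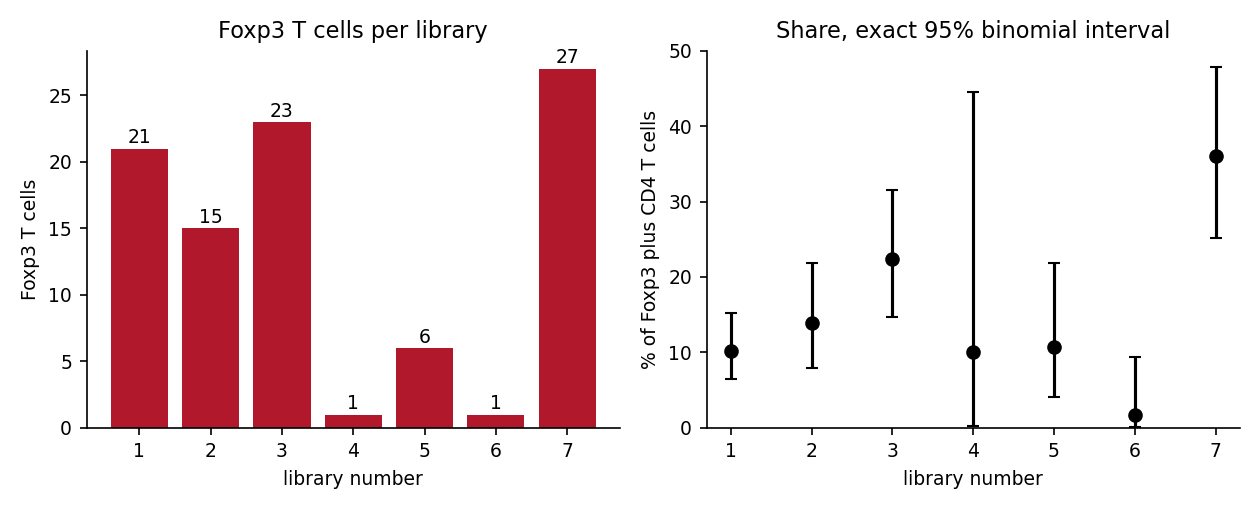
The number of Foxp3 T cells in each library (bars, left) and their percentage among Foxp3 T cells plus Foxp3-negative CD4 T cells (points with exact binomial intervals, right), by library number. Libraries 4 and 6 held 1 cell each, and library 7 had the highest share, 36.0%.

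The rule was passed by most cells with Foxp3. A Foxp3 UMI was present in 123 barcodes, of which 7 exceeded the mitochondrial limit, the nearest at 10.011%, while the highest Foxp3 T cell inside it had 8.77%. Of the 116 within the limit, 10 had no Cd3 UMI and none of these had a UMI of Ctla4. Another 12 had a Cd3 UMI together with an excluding gene, most often Cd8b1 (7 cells), at a median of 19056 UMIs. Just inside the Foxp3 threshold lay 26 cells with a single Foxp3 UMI, with 922 CPM of Ctla4, and the 68 cells with more had 996 CPM. A Cd4 UMI, which the rule did not ask for, was found in 68 of the 94. Foxp3 was rarely detected in other cell classes: 1 of 5238 B cells had a UMI (0.0191%), as had 1 of 1296 macrophages (0.0772%). It was detected in 0 of 393 natural killer (NK) cells, which allows up to 0.763%, and in 0 of 4001 endothelial cells, which allows up to 0.0750%. Such limits hold for cells with a detected UMI and not for cells that express the gene. Median depths of these classes were 5189, 11124, 5323 and 5934 UMIs.

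The name of the cells was checked on markers that the rule did not use. Ctla4 had a UMI in 91.5% of the Foxp3 T cells (83.9 to 96.3), against 35.8% of Foxp3-negative CD4 T cells, 13.9% of CD8 T cells and 0.225% of endothelial cells. Il2ra had one in 69.1% (58.8 to 78.3), against 8.65%, 3.07% and 0.300%. With each cell thinned to 1500 UMIs, which left out 0 Foxp3 T cells, 3 CD4 and 7 CD8 T cells, Ctla4 remained in 70.2% (59.9 to 79.2), 18.4% and 3.72%. Il2ra was then found in 33.0%, 1.93% and 0.867%. Of the 5 markers Ctla4, Il2ra, Ikzf2, Tnfrsf18 and Izumo1r, 84 of 94 Foxp3 T cells (89.4%) had at least 3, compared with 77 of 520 CD4 T cells (14.8%) and 28 of 814 CD8 T cells (3.44%). Cells with few of the markers were rare: 2 had none, 3 had 1 and 5 had 2. The single cell of library 6 was one of the former, with 1 Foxp3 UMI and 0 of the other markers.

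**Figure D2:**
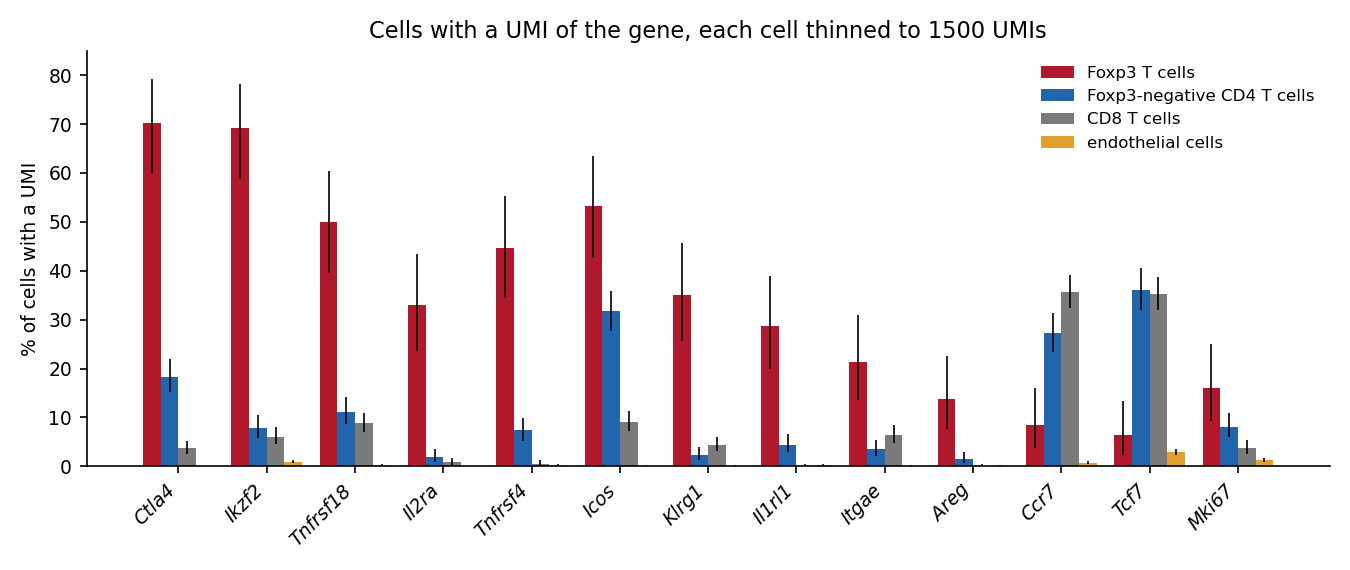
The percentage of cells with at least 1 UMI of each gene after each cell was thinned to 1500 UMIs, in 94 Foxp3 T cells, 517 Foxp3-negative CD4 T cells, 807 CD8 T cells and 3733 endothelial cells (bars, with exact binomial intervals). Ctla4, Ikzf2, Klrg1 and Il1rl1 were found more often in Foxp3 T cells, and Ccr7 and Tcf7 less often, than in the other T cells.

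Which transcripts set Foxp3 T cells apart from other CD4 T cells was examined against 520 cells with a Cd4 and a Cd3 UMI and no UMI of Foxp3, Cd8a, Cd8b1, Cd79a or C1qa. These held 4237455 UMIs at a median of 6187.5 per cell. For each gene the ratio of UMI rates was taken within libraries and combined over them (Mantel-Haenszel), and a gene was called at a ratio of at least 2 or at most 0.5. Cells are not replicates, so there is no test and no p-value. Of 7419 genes with at least 10 UMIs expected in the Foxp3 T cells, 204 (2.75%) were called higher and 349 (4.7%) lower, with a median log2 ratio of 0.04. Without libraries 4, 5 and 6 there were 201 and 352 of 7182 measured. The counts depended on other choices, some of which changed the number of genes measured. Thinning each cell to 1500 UMIs gave 103 higher and 75 lower of only 2171 measured. A mean over cells gave 375 higher of 7419, and a reference not asked for Cd4 930.0 lower of 7807. The highest ratio was that of Klrg1 (chromosome 6, 122270596 to 122282882, GRCm38), an inhibitory receptor for cadherins, with 295 CPM in Foxp3 T cells and 13.9 CPM in CD4 T cells, a ratio of 22.0 (16.1 to 30.001). Tnfrsf9 followed at 16.7 (10.8 to 26.0) and Il2ra (chromosome 2, 11642807 to 11693193) at 13.9 (10.7 to 18.1).

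The remaining genes of the 15 with the highest ratios were a mixture of known regulatory T cell genes and others. Ikzf4 and Ikzf2 had ratios of 11.2 (6.88 to 18.4) and 10.9 (9.46 to 12.6). For Ikzf2 an exact interval for 1 ratio common to all libraries, 11.5 to 14.99, did not hold the printed ratio. Tnfrsf4 stood at 7.58 (6.38 to 8.998), the integrin chain CD103 (Itgae), which binds epithelial E-cadherin, at 7.14 (5.26 to 9.71) and Areg at 7.11 (5.36 to 9.43). GARP (Lrrc32), which holds latent TGF-beta on the cell surface, had a ratio of 6.49 (3.85 to 10.9). The giant muscle protein nebulin (Neb) was found in 34 of 94 Foxp3 T cells and 16 of 520 CD4 T cells, with a ratio of 13.7 (8.02 to 23.6). Ncmap, named for myelin, had 6.75 (3.68 to 12.4), the signaling regulator Rgs16 6.43 (4.06 to 10.2; 3.43 without library 1 and 14.7 without library 3), the kinase gene Matk 6.37 (4.01 to 10.1) and Apol9b, whose reads could be split with close copies of the gene, 6.22 (3.25 to 11.9). Cyr61, at 6.19 (4.07 to 9.42), rested on 1 cell, which held 51 of its 55 UMIs, and the ratio was 0.176 without library 3. All 15 but Cyr61 and Rgs16 were higher in each of the 4 libraries with at least 10 Foxp3 T cells. The 15 were picked by their ratios over these same libraries, so this agreement is not independent of the choice. The share of all measured genes that were higher in each of these libraries was not counted.

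**Figure D3:**
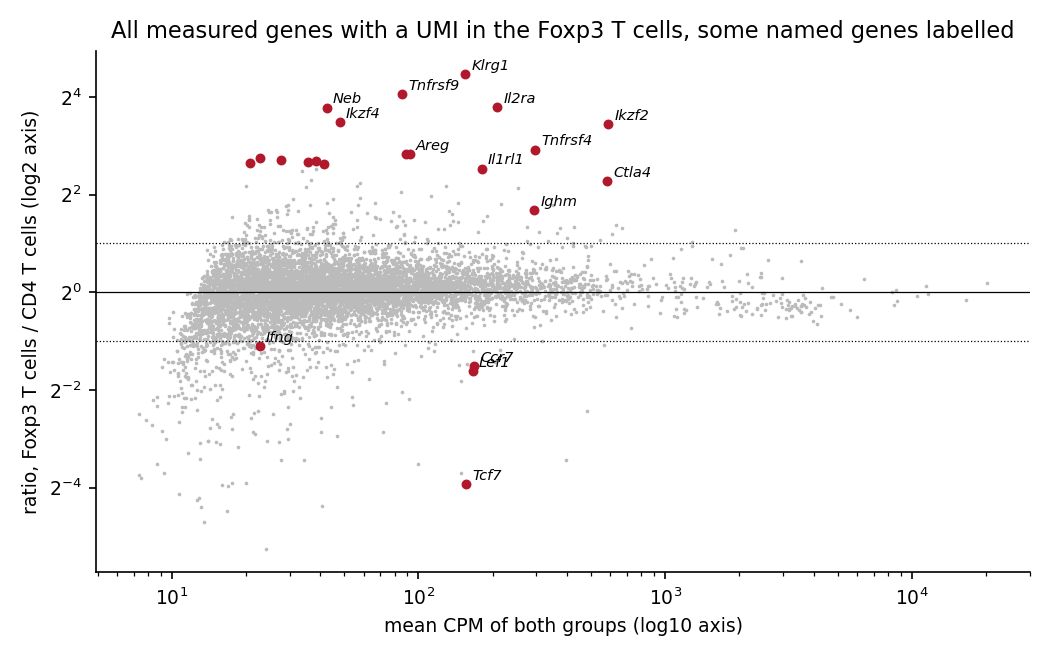
The ratio of each measured gene between Foxp3 T cells and Foxp3-negative CD4 T cells (log2 axis) against its mean CPM in both groups (log10 axis). Each point is 1 of 7409 genes, red points are named genes, dotted lines mark ratios of 2 and 0.5, and 10 genes without a UMI in the Foxp3 T cells are not drawn. Klrg1, Tnfrsf9, Il2ra and Ikzf2 lie at the top and Tcf7 near the bottom.

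The 10 lowest genes had no UMI in the Foxp3 T cells, and several of them rested on single reference cells. Ccl21a, a chemokine of lymphatic vessels, had 830 of its 909 reference UMIs in 1 cell. In the same way 1 cell held all 83 UMIs of Stfa3, 86 of the 92 of Mmp3, 46 of the 49 of Aqp5 and 40 of the 96 of Cldn18. Lmo7 (43 UMIs in 9 cells) and Basp1 (86 in 21) were also unevenly spread. In contrast, Pdlim4 had 131 UMIs in 84 CD4 T cells and was at least 6.21-fold lower in Foxp3 T cells, taking 3 UMIs over all of them as the limit that a count of 0 allows. Rapgef4, an exchange factor for Rap that senses cyclic AMP, had 77 UMIs in 65 cells and was at least 4.13-fold lower. The noncoding RNA Gm26551 (chromosome 11, 51949882 to 52269514) had 116 UMIs in 87 cells and was at least 4.45-fold lower. Its annotated span overlaps Tcf7 (52252371 to 52283014) on the same strand, so reads of both cannot be told apart with certainty.

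Regulatory T cell genes were higher as a group. Foxp3 itself (chromosome X, 7573644 to 7595245), which chose the cells, had 374 CPM (332 to 420). Of 13 other genes on the list, 11 passed the limit on expected UMIs and 8 of these were called higher and 0 lower, with a median log2 ratio of 1.81. Of all 7419 measured genes 2.75% were called higher and 4.7% lower, the shares to set beside each list against CD4 T cells. The lists were chosen with earlier results of these data known, so their counts are descriptions. Ctla4 (chromosome 1, 60887000 to 60915832) had 981 CPM in Foxp3 T cells and 179 CPM in CD4 T cells, a ratio of 4.82 (4.32 to 5.38). In libraries 1 to 7 the Foxp3 T cells had 1445, 609.6, 1075, 907, 273, 0 and 929 CPM of Ctla4, against 298, 81.7, 216, 0, 67.8, 2.67 and 253 in the CD4 T cells. Every library but the sixth was thus higher. For Il2ra the values were 556, 177, 155, 151, 231, 0 and 762.05 CPM against 33.2, 14.2, 7.90, 0, 8.75, 16.0 and 69.2. Libraries 1 and 7 had the most Il2ra in both kinds of cell. Tnfrsf18, the folate receptor gene Izumo1r and the actin-capping gene Capg had ratios of 3.496, 3.04 and 2.49. The neuropilin gene Nrp1 (1.66) and the adenosine-producing enzymes CD73 (Nt5e, 1.998) and CD39 (Entpd1, 1.30) stayed below 2.

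Costimulatory receptors showed 4 of 10 genes called higher and 0 lower, beside 2.75% and 4.7% of all measured genes, with a median log2 ratio of 0.81. Besides Tnfrsf9 and Tnfrsf4 these were the tumor necrosis factor receptor gene Tnfrsf1b, at 2.46 (1.98 to 3.05; log2 ratio 0.83, below the limit, without asking the reference for Cd4), and Icos, at 2.02 (1.80 to 2.27). Icos was below the limit without library 1 (1.85) and without library 2 (1.92). Tnfrsf4 was 1180 CPM in library 1 and between 201 and 523 CPM in libraries 2, 3 and 7, with 60.2 CPM in CD4 T cells over all libraries. Tnfrsf9 had UMIs in 30 Foxp3 T cells only, at 164 CPM. Cd28, the main costimulatory receptor of T cells, had a ratio of 0.738 (0.648 to 0.840).

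Among suppressive mediators, 7 of 11 genes were measured and 4 were called higher and 0 lower (median log2 ratio 1.33). The shares of all measured genes were 2.75% higher and 4.7% lower. Areg led the list, although 54 of its 104 UMIs in the CD4 T cells lay in 1 cell. It was 457 CPM in the Foxp3 T cells of library 1, 46.3, 79.6 and 128 CPM in libraries 2, 3 and 7, and had no UMI in libraries 4, 5 and 6. Interleukin 10 (Il10), the main secreted inhibitor of these cells, had 41 UMIs in 12 cells and a ratio of 3.46 (2.33 to 5.14), with 0 UMIs in library 2 and 19, 17 and 5 in libraries 1, 3 and 7. In the CD4 T cells 1 cell held 61 of its 78 UMIs, the ratio was 6.20 without library 1, and with a mitochondrial limit of 5% the log2 ratio was -1.46, in the other direction. The soluble inhibitor gene Fgl2 had 2.76 (2.30 to 3.31), and a log2 ratio of 0.65, below the limit, when the reference was not asked for a Cd4 UMI. Granzyme B (Gzmb), a killing protease, had a ratio of 2.51 (1.93 to 3.28) with 44 of its 88 UMIs in library 1, and 1.19 without that library. TGF-beta 1 (Tgfb1) was at 1.26 (1.04 to 1.53). Ebi3 and Itgb8, with 18 and 23 UMIs, fell short of the limit on expected UMIs.

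The tissue effector list holds genes of T cells settled in organs, and 14 of its 16 genes were measured. Of these 6 were called higher and 1 lower, beside 2.75% and 4.7% of all measured genes, with a median log2 ratio of 0.86. Klrg1 and Itgae were the highest, followed by Il1rl1 (chromosome 1, 40429570 to 40465415), with 308 CPM against 53.1 and a ratio of 5.78 (4.74 to 7.07), and Prdm1 (Blimp-1), a repressor of effector T cells, at 3.76 (2.57 to 5.50). Il1rl1 was 543, 170, 142 and 428 CPM in libraries 1, 2, 3 and 7, and CD4 T cells of the same libraries had 106, 34.9, 17.4 and 81.2 CPM. Klrg1 was 401, 301, 124 and 267 CPM there, against 6.91, 30.5, 15.8 and 3.01. For both genes the lowest Foxp3 value of these 4 libraries lay above the highest CD4 value. Both were named for their ratios in these same libraries, so this is a description only. The share of all measured genes that separate in this way was not counted. The transcription factor genes Batf and Irf4 had ratios of 2.25 and 2.08, while Maf (1.94), Gata3 (1.71) and Rora (1.58) stayed below 2. Cd44 (1.41), Rgs1 (1.11) and Cd69 (1.09) were also not called, nor was Cxcr6, which lay below 1 at 0.634 (0.498 to 0.808). Il18r1, a chain of the interleukin 18 receptor, was lower at 0.482 (0.368 to 0.632).

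Promoters are shown for the higher genes that held the forkhead letters, because Foxp3 is a forkhead factor, beside Il2ra, which lacked them. The letters TGTTTAC and their reverse complement were searched on both strands in RefSeq promoters (GRCm38.p6), each from 250 bases before to 50 bases after an annotated start. Of 27 of the higher genes, those that the rule for named genes gave against CD4 T cells outside the lists of other cell types together with Ctla4, 17 had a promoter in the table, and 2 of these genes (11.8%) held the letters, compared with 4.05% of all 27025 genes and 3.65% of all 32851 promoters. With 2 genes this is a description only, and a match is not evidence of binding. The Il1rl1 promoter that held them was the inner of its 2 promoters in the table (chr1:40439379-40439678, plus strand), where they began 117 bases before the start. In Prdm1 (chr10:44458699-44458998, minus strand) they began 231 bases before it. The Il2ra window was chr2:11642542-11642841, plus strand. Klrg1, Neb, Ikzf4, Ikzf2, Itgae, Lrrc32, Cyr61, Icos, Il10 and Il2rb had no entry. Capitals mark the letters, here as the reverse complement.
Il1rl1: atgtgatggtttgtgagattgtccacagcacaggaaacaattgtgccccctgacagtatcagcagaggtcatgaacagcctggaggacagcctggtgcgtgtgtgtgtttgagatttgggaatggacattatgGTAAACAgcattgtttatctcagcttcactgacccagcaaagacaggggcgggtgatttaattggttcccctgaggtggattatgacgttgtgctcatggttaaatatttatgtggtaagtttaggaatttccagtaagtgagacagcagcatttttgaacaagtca
Prdm1: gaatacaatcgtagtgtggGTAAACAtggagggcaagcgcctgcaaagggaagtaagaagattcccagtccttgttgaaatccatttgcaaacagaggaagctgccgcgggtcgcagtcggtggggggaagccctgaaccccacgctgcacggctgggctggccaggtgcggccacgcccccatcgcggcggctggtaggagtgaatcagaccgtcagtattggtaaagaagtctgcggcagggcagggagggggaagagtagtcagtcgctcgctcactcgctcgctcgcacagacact
Il2ra: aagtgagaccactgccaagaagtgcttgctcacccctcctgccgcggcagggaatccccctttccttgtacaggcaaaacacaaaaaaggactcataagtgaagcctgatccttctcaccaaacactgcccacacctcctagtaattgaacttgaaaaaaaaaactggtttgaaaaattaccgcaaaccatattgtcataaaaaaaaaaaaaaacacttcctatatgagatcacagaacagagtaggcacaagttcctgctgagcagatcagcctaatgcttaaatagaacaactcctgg

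Genes of resting and recirculating T cells were lower. All 9 genes of that list were measured, 5 were called lower and 0 higher, with a median log2 ratio of -1.18. Of all measured genes 4.7% were called lower and 2.75% higher. The largest difference was in Tcf7 (TCF-1), a transcription factor of naive and memory T cells, which had 16 UMIs in 10 of the 94 Foxp3 T cells and 1227 UMIs in 382 of the 520 CD4 T cells. Its level was 21.2 CPM against 290 CPM, a ratio of 0.0656 (0.0400 to 0.108), and 0.0302 without library 3. In libraries 1 to 7 it had 0, 15.4, 48.7, 0, 0, 0 and 16.7 CPM in Foxp3 T cells and between 185 and 468 CPM in CD4 T cells. Libraries 4, 5 and 6 held only 1, 6 and 1 of the Foxp3 T cells, and Tcf7 was named for its ratio in these same data. Bach2 (0.306, and 0.154 without library 3), Lef1 (0.325, 0.249 to 0.424), Ccr7 (0.352, 0.278 to 0.446) and Satb1 (0.442) were the other genes called lower. When the reference was not asked for a Cd4 UMI, the log2 ratios of Lef1 and Ccr7 were -0.96 and -0.76, which ended both calls. Ccr7 had 64 of its 77 UMIs in library 3, and its ratio without that library was 0.115.

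**Figure D4:**
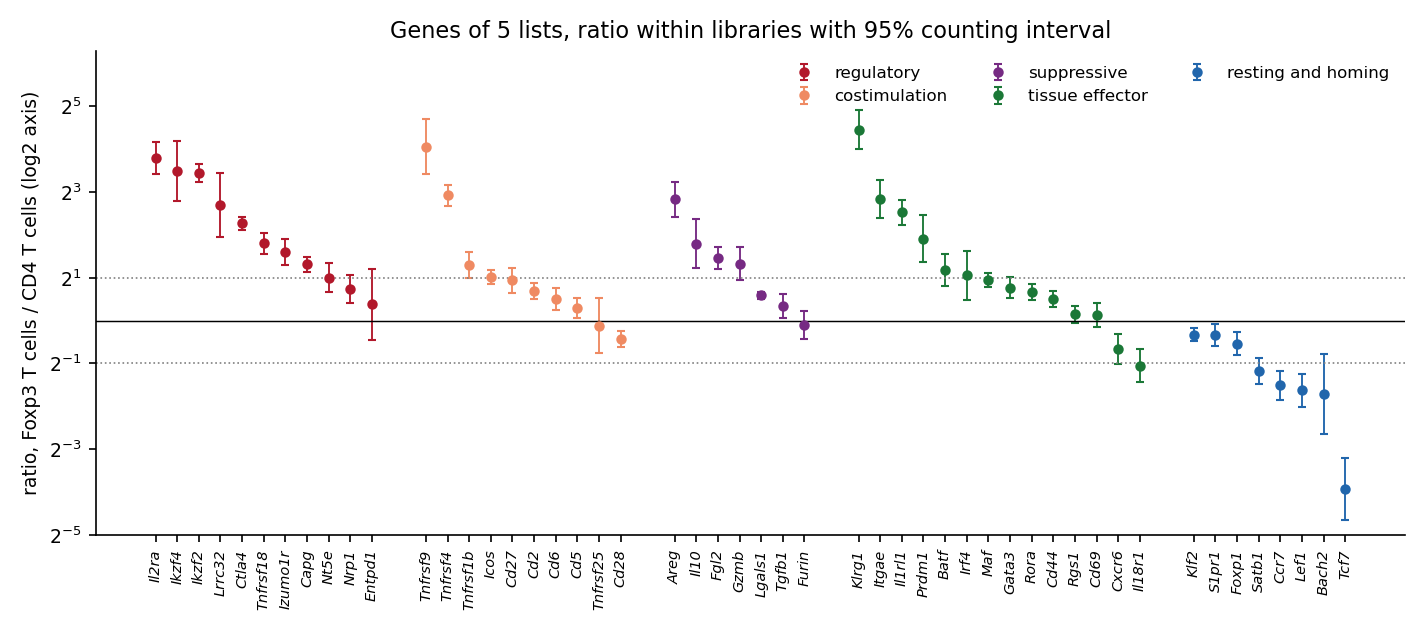
The ratio between Foxp3 T cells and Foxp3-negative CD4 T cells (log2 axis) for 50 measured genes of 5 lists, with counting intervals. Dotted lines mark ratios of 2 and 0.5. Regulatory and costimulatory genes lie mostly above 1, and the resting and homing genes drawn lie below it.

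Of 15 genes of interleukin 2 signaling, 2 were called higher and 2 lower, with a median log2 ratio of 0.06. The receptor chain Il2rb had a ratio of 2.06 (1.81 to 2.35; 1.81 without library 1) and the STAT5 target Cish 2.72 (2.22 to 3.34), while Il2 itself had 3 UMIs in 3 Foxp3 T cells and 104 UMIs in 78 CD4 T cells, a ratio of 0.145 (0.0455 to 0.464). The survival gene Bcl2 was at 0.355 (0.267 to 0.471). The receptor chain Il2rg (1.36), the kinase gene Jak1 (1.04) and Stat5a (1.29) stayed below 2, and the feedback inhibitors Socs1 and Socs3 were at 0.859 and 0.673. The interleukin 7 receptor chain Il7r had a ratio of 0.756 (0.663 to 0.861).

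The 12 genes of the helper cytokine list summed to 633 CPM in Foxp3 T cells and 679 CPM in CD4 T cells, and in library 1 to 1161 and 879 CPM. Most of the UMIs were those of lymphotoxin beta (Ltb), with 420.0 UMIs in 84 cells and a ratio of 1.20 (1.07 to 1.34). Of the list, 5 genes were measured and 3 were called lower: the B cell helper ligand gene Cd40lg at 0.125 (0.0508 to 0.305; 0.0559 without library 2), Il17a at 0.197 (0.0917 to 0.422) and Ifng at 0.463 (0.248 to 0.863). Ifng had 11 UMIs in 3 cells and Il17a 7 UMIs in 2 cells, and the ratio of Il17a, which had 82 of its 212 reference UMIs in 1 cell, was 0.539 without library 1 and 0.0450 without library 2. Il4, Il21, Il22 and Csf2 had no UMI. Il13 had 8 UMIs, all in 1 cell. Of the lineage transcription factors, 10 of 13 were measured and Tbx21 (T-bet) was called lower, at 0.474 (0.228 to 0.987), with 8 UMIs in 4 cells. Runx1 (0.808), Foxo1 (0.943) and Cbfb (1.16), which act in all T cells, lay near 1.

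Checkpoint receptors gave 6 measured genes of 7, of which Havcr2 (TIM-3) was higher at 2.59 (1.56 to 4.30) and Btla lower at 0.402 (0.226 to 0.717). Pdcd1 (PD-1) was at 1.02 (0.680 to 1.52). T cell receptor genes had 10 measured members, with 0 called higher and 1 lower, namely Themis, a signaling adaptor of developing T cells, at 0.242 (0.162 to 0.361). Trac, the receptor alpha chain, had 1.26 and the kinase gene Lck 0.774. Of the 12 proliferation genes none was called in either direction. Mki67 had 292 CPM against 207 CPM, a ratio of 1.27 (1.09 to 1.48), and a UMI in 25 of 94 Foxp3 T cells (26.6%), against 18.1% of CD4 T cells and 3.37% of endothelial cells. After thinning these shares were 16.0% (9.22 to 24.95), 8.12% (5.92 to 10.8) and 1.26%, and the intervals of both T cell classes overlapped.

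Chemokine receptors guide T cells to tissue, and 9 of 12 were measured, with 2 called higher and 1 lower. Ccr2, the receptor for monocyte chemoattractants, had 567 CPM in Foxp3 T cells and 137 CPM in CD4 T cells, a ratio of 3.47 (3.03 to 3.97), with UMIs in 61 of 94 cells. It was 772, 386, 540 and 601 CPM in libraries 1, 2, 3 and 7. Ccr1 had a ratio of 2.39 (1.54 to 3.72) with 1.30 without library 1 and 3.83 without library 7. Its log2 ratio was 0.41 with a mitochondrial limit of 5% and -0.91, in the other direction, when the reference was not asked for a Cd4 UMI. Ccr10 was lower at 0.144 (0.0587 to 0.355; 0.0684 without library 3), with 120 UMIs in 16 CD4 T cells. Cxcr4 (1.90) lay just under the limit. Ccr8, a receptor known from regulatory T cells of other tissues, had no UMI in the 94 cells, and 3 UMIs in the CD4 T cells. Ccr3, the eotaxin receptor best known from eosinophils, was singled out after its values were seen: it had 30 UMIs in 15 Foxp3 T cells, 2 UMIs in 2 of the 520 CD4 T cells and 8 UMIs in 7 of the 814 CD8 T cells, and fell short of the limit on expected UMIs. The 15 cells came from libraries 1, 2, 3, 5 and 7, with 4, 3, 2, 2 and 4 cells. The eosinophil genes Prg2, Il5ra and Epx had no UMI in the Foxp3 T cells, and the single UMIs of Alox15 and Siglecf lay in cells without Ccr3.

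CD8 T cells formed the other reference, with 814 cells and 6671374 UMIs at a median of 7201 per cell. Of 7091 measured genes, 570 (8.04%) were called higher in Foxp3 T cells and 361 (5.09%) lower, with a median log2 ratio of 0.19. Il1rl1 had the highest ratio, with 233 UMIs in 51 Foxp3 T cells and 10 UMIs in 4 CD8 T cells, or 162 (82.4 to 317). Areg followed with 121 UMIs against 7 and a ratio of 128 (58.9 to 278), which was 48.8 without library 1 and 565 without library 2. Tnfrsf4 (44.9, 32.9 to 61.5), Il2ra (41.5, 29.1 to 59.2) and Neb (39.5, 18.9 to 82.5) came next, and Ctla4 had a ratio of 15.7 (13.5 to 18.3). Without library 2 Il1rl1 was at 298, below Areg. Without library 1 Tnfrsf4 was at 152.5, above Areg, and Il2ra at 69.8, and without library 7 Neb was at 26.2. At the other end 5 genes had no UMI in the Foxp3 T cells: the NK receptor genes Klre1 and Klrc1 (at least 22.1-fold and 21.8-fold lower), the gut-homing receptor Ccr9 (at least 9.56-fold), the adhesion gene Crtam (at least 8.83-fold) and the gamma delta receptor constant gene Tcrg-C2 (at least 8.82-fold), whose reads may be split with its near copies.

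Against CD8 T cells the same lists were described, beside 8.04% of all measured genes called higher and 5.09% lower. Of the regulatory list 9 of 9 measured genes were called higher, of costimulation 7 of 10, and of the tissue effector list 11 of 14, with Maf, an inducer of interleukin 10, at 17.1 (13.96 to 20.96). The resting list again had 5 of 9 genes called lower, and Tcf7 was at 0.0754 (0.0460 to 0.124). Zbtb7b, the factor that sets the CD4 lineage, had a ratio of 8.004 (4.73 to 13.5) and Eomes, a factor of cytotoxic cells, 0.0196 (0.00276 to 0.140). All 6 measured cytotoxic genes were lower, with the chemokine gene Ccl5 at 0.0341 (0.0290 to 0.0402). Without library 3 Ccl5 was at 0.0149 and Tcf7 at 0.0335, and without library 7 Eomes was at 0.0315. Proliferation genes had 6 of 12 called higher, but Birc5, Ccnb1, Ccnb2 and Ube2c, the named ones, dropped below the limit without library 3 (1.66, 1.77, 1.78 and 1.15).

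Foxp3 T cells differed from library to library in the balance of tissue and resting genes. The summed level of the tissue effector list was 5360.3, 2639, 2026 and 4378 CPM in libraries 1, 2, 3 and 7, and 3327, 2917 and 427 CPM in libraries 4, 5 and 6. The resting list gave 618, 1597, 2203 and 946 CPM in libraries 1, 2, 3 and 7 and 1966, 2476 and 5343 CPM in the others. Libraries 1 and 7 were thus high in tissue genes and low in resting genes, libraries 2 and 3 the reverse, and the intervals of the 2 pairs did not overlap for either list. Other lists also differed between libraries 1, 2, 3 and 7. The dendritic cell list had 476, 9206, 695 and 3293 CPM and the neutrophil list 30.9, 46.3, 1973 and 16.7 CPM. The macrophage list had 3508, 2137, 2636.5 and 456 CPM and the proliferation list 2841, 4283, 6237 and 2737 CPM. Their part in the balance was not tested. The CD4 T cells of the same libraries had 2931, 1585, 1206 and 3153 CPM of tissue genes and 1268, 2296, 3693 and 2379.7 CPM of resting genes. Libraries 1 and 7 were thus also the higher for tissue genes in CD4 T cells, whereas for resting genes library 7 lay beside library 2. Within libraries the Foxp3 T cells had 1.70 times the tissue list of the CD4 T cells (1.62 to 1.78) and 0.587 times the resting list (0.551 to 0.625). Gata3, which directs type 2 immunity, ran from 133 CPM in library 3 to 414 CPM in library 1. Because the libraries have no group label, a difference in treatment and a difference between libraries cannot be told apart.

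**Figure D5:**
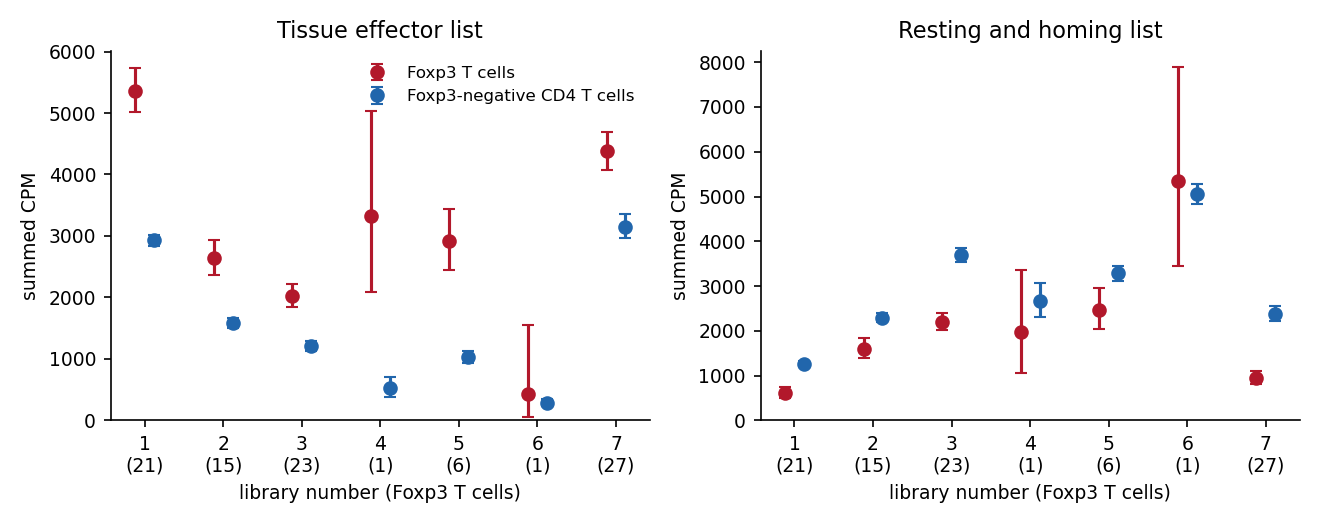
The summed CPM of the tissue effector list (left) and of the resting and homing list (right) in Foxp3 T cells (red) and Foxp3-negative CD4 T cells (blue) of each library, with exact Poisson intervals and the number of Foxp3 T cells in brackets. Foxp3 T cells of libraries 1 and 7 have the most tissue list and the least resting list among libraries 1, 2, 3 and 7.

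Within the Foxp3 T cells, Il1rl1, the gene for ST2, had a UMI in 51 cells. The 51 cells with Il1rl1 had more Klrg1 (398 against 113 CPM), Areg (224 against 47.5) and Gata3 (311 against 146) than the 43 without, and less Ccr7 (22.8 against 241), of which 64 of 77 UMIs lay in library 3. Maf (537 against 814) and Il10 (33.2 against 91.3) were lower in the cells with Il1rl1, and Itgae (155 against 161), S1pr1 (205 against 208) and Klf2 (593 against 569.7) were close. These levels were pooled over libraries. The proliferation list summed to 4591 CPM in the cells with Il1rl1 and 2709.7 CPM in those without. RNA of other cell types also differed between the sets, with 31.1 against 2239 CPM of the neutrophil list, 336 against 2085 CPM of the epithelial list, 126 against 581 CPM of the cytotoxic and NK list, 1814 against 2388 CPM of the macrophage list and 3040.5 against 2125 CPM of the dendritic cell list. The erythroid list had 6682 against 9977 CPM, the B cell list 599 against 402 CPM and the stromal and vessel list 118 against 194 CPM. The part of this RNA in the differences was not tested. Their median depth was 7253 UMIs against 5082, and deeper cells are more likely to show a UMI of any gene. The cells with Il1rl1 came from libraries 1, 2, 3 and 7 in numbers of 13, 8, 9 and 17, with 1 in library 4 and 3 in library 5. Those without came from libraries 1, 2, 3 and 7 in numbers of 8, 7, 14 and 10, with 3 in library 5 and 1 in library 6. This split describes the cells and was not tested.

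RNA of other cell types was present in most Foxp3 T cells, with UMIs of the dendritic cell list in 77, of the B cell list in 76 and of the macrophage list in 72. For several lists most of the UMIs lay in 3 cells. Of the 8 macrophage genes 7 had UMIs (2022 CPM in sum, Lyz2 the most abundant), with 87.6% of them in 3 cells and C1qa at 0 by the rule. The 4 neutrophil genes summed to 830.4 CPM (S100a9 first, 95.2% in 3 cells), the 5 erythroid genes to 7875 CPM (Hbb-bs, 97.1%), and the 5 dendritic cell genes to 2709 CPM (Cd74, 76.6%). The 6 epithelial genes gave 969 CPM, mostly Scgb1a1, of which 1 cell held 364 of 658 UMIs, with UMIs of the list in 71 cells. The 6 stromal and vessel genes gave 145 CPM, led by Pecam1. Against CD4 T cells Scgb1a1 was called higher (2.27), and Sftpa1, Sftpb, Sftpc, Cdh5, Cldn5, Dcn and Mrc1 lower. Against CD8 T cells Hba-a1, Hba-a2 and Hbb-bs were called higher, and Sftpa1, Sftpb, Sftpc, Cdh5, Cldn5 and Mrc1 lower. Over all libraries, however, the erythroid list was lower in Foxp3 T cells, at 7875 CPM against 28180 CPM in CD8 T cells. In library 5, with 6 Foxp3 T cells, it was higher (123040 against 40267 CPM). It was lower in library 4 (8469 against 118780 CPM) and in library 6 (6625 against 56684 CPM). Ncr1, Klrb1c and Ms4a1, which define NK and B cells, were at 0. Cytotoxic and NK genes summed to 291 CPM against 1110 CPM in CD4 T cells, and 4 of 4 measured genes were called lower, with Gzma at 0.0930 (0.0297 to 0.291) and Ccl5 at 0.184 (0.156 to 0.218; 0.0918 without library 3 and 0.311 without library 7). At least 50 UMIs of 1 of the 6 myeloid, epithelial, stromal and erythroid lists were present in 13 of 94 Foxp3 T cells (13.8%), 12.9% of CD4 T cells and 17.6% of CD8 T cells. Without all such cells, 256 of 6546 measured genes were called higher and 241 lower against CD4 T cells. The part of such RNA in the other results was not tested.

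Of the B cell list, 2 of 8 genes were measured and Ighm was called higher. The constant region gene of immunoglobulin M had 434 CPM in the Foxp3 T cells and 156 CPM in CD4 T cells, a ratio of 3.23 (2.79 to 3.73). It was spread widely, with UMIs in 65 of 94 cells and at most 20 in 1 cell. After thinning, 39.4% of the Foxp3 T cells had an Ighm UMI (29.4 to 49.98), 18.6% of CD4 T cells, 23.4% of CD8 T cells and 4.34% of endothelial cells. Cd79b, the other immunoglobulin-associated chain, had 27 UMIs in 17 Foxp3 T cells and 30 UMIs in all CD4 T cells, but fell short of the limit on expected UMIs in that comparison. Against CD8 T cells Cd79b was measured and called higher, as was Ighm, at 2.89 (2.52 to 3.31). Cd79a was at 0 by the rule in every class of T cell compared here.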

How the data were processed

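Single-cell RNA was measured in dissociated tissue that the labels call mouse lung. The deposited matrix holds UMI counts per gene and barcode, not normalized, which the authors made with Cell Ranger 3.1.0 per the file headers; the submitters' processing notes name STAR and mm10, and the study evened out library depth by down-sampling reads. Of 31053 gene identifiers, 30934 matched the annotation used for coordinates. Library numbers were read from the barcode suffixes. Library numbers could not be tied to samples, no column was left unused, and cells were not treated as replicates, so no test was run.

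From the counts, CPM (UMIs per 1000000) were computed over the summed UMIs of a class. Ratios were Mantel-Haenszel rate ratios with libraries as strata, for genes with at least 10 UMIs expected in the Foxp3 T cells, called at 2 or 0.5. The 9 genes that chose the cells were left out of every count. Their intervals use the Poisson variance within each library. They were added after seeing the data, because the exact common-ratio interval did not hold the ratio of 1 of 71 named genes, Ikzf2. Shares have exact (Clopper-Pearson) intervals and levels exact Poisson intervals, at 95%. UMIs of 1 cell are not independent, so true errors are wider. A count of 0 was given a limit of 3 UMIs over the class.

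Named genes were the 15 highest and 10 lowest ratios against CD4 T cells, the 5 highest and 5 lowest against CD8 T cells and up to 4 of each list, all with the common-ratio interval beyond 1.5 (or its inverse), otherwise up to 2 of a list with the most UMIs, and always Foxp3, Ctla4 and Il2ra; further members of a list, and Ccr3, were named after their values were seen. The cells and the lists were chosen with earlier results of these data known. No doublet caller was run; the study's limits on UMIs and genes, and a stricter exclusion of other classes' genes, served as alternatives. Others were the mitochondrial limit, at least 2 Foxp3 UMIs, the CD4 T cell rule, thinning, pooling, a mean over cells, the limit on expected UMIs and leaving out each library. Python 3.11.15, numpy 2.4.6, scipy 1.17.1, pandas 2.3.3 and matplotlib 3.10.9 were used, and the ratio code was tested on simulated data. Results for some genes are not reported here; sums and counts over a list include them.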

Additional observations from a re-analysis of the deposited data

How the results depend on the processing

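No paired analysis was possible because libraries that cannot be tied to samples were not taken as replicates. The ratios compare cells within libraries, and no test was run on them. With a mitochondrial limit of 5%, 53 Foxp3 T cells remained, and the log2 ratio of the resting list against CD4 T cells was -0.58 (-0.77 as reported). Against CD8 T cells 315 of 5321 measured genes were then higher. The study's limits on UMIs and genes gave 208 of 6569 measured genes lower against CD4 T cells. Asking for at least 2 Foxp3 UMIs gave a share of 4.65% of the cells that met the rest of the rule. With 8 more genes of other classes at 0, 38 Foxp3 T cells were left, the share was 8.30% and the resting list was at -0.97. Against CD4 T cells 177 of 3920 measured genes were lower. Against CD8 T cells 375 were higher and 225 lower of 3602. Without asking for Cd4 in the reference, 930.0 of 7807 measured genes were lower and the resting list was at -0.47. Thinning to 1500 UMIs gave 103 genes higher and 75 lower of 2171 measured against CD4 T cells. Against CD8 T cells it gave 182 and 108 of 1959. The tissue list was then at 0.68 and the resting list at -0.92. Pooling libraries put the tissue list at 0.85, and a mean over cells gave 375 of 7419 genes higher and the resting list at -0.93. At least 5 expected UMIs gave 343 and 692 of 9256 genes against CD4 T cells and 630.0 lower of 8930 against CD8 T cells. At least 20 gave 118 and 149 of 5157, and 325 and 185 of 4816. Without the cells rich in other classes' RNA, chosen after seeing the data, the share was 8.44%. In libraries 1, 2, 3 and 7 alone, also chosen afterwards, the tissue list was at 0.71 and the resting list at -0.84.

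Leaving out 1 library at a time gave shares from 5.10% to 7.21%, 165 to 245 genes higher and 283 to 362 lower against CD4 T cells, 411 to 575 higher and 283 to 368 lower against CD8 T cells, and log2 ratios from 0.70 to 0.87 for the tissue list and from -0.82 to -0.67 for the resting list. Of the named genes, Il10 turned at the 5% limit (-1.46), Cyr61 under the study's limits (-0.57) and without library 3, the values without 1 library running from -2.51 to 4.0025, and Ccr1 without asking for Cd4 (-0.91). The cause was not tested. Of 41 named genes past a ratio of 2 against CD4 T cells, 30 stayed past it in each of up to 17 settings that gave a value. The calls of Ccr1, Ccr7, Cyr61, Fgl2, Gzmb, Icos, Il10, Il17a, Il2rb, Lef1 and Tnfrsf1b ended in at least 1. The number of cells, 94, and their 756312 UMIs limit every value, and libraries 4 and 6 hold 1 cell each.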
